A study of Mus musculus with 4 samples.

Results

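The 45 genes described here encode the machinery just beneath the T cell receptor (TCR): the CD3 chains and the CD4 coreceptor, the Src, Syk and Tec family kinases, the adaptors and enzymes they act on, the calcium and NFAT branch, and the phosphatases, ubiquitin ligases and lipid kinases that hold the pathway back. The members were taken as a list of gene symbols and looked up in the expression table, where all 45 were found among 16142 genes. By their known roles 26 of them are activators of TCR signalling, 15 are negative regulators, and 4 (Themis, Cd6, Sh2d2a and Ptprc) have been given both roles. RNA was measured in splenic CD4+ T cells of wild-type (WT) C57BL/6 mice and of a strain with the genotype Cd4 CreERT2 LSL-R111A fl/fl, with 2 libraries in each group. R111A is a form of Regnase-1, the RNase encoded by Zc3h12a, that cannot be cleaved by the protease MALT1. Its coding sequence sits at Rosa26 behind the CAG promoter and a STOP cassette flanked by loxP sites, together with EGFP, and the Cre comes from a Cd4-cre/ERT2 transgene that tamoxifen switches on.

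The protocol given for both groups lists tamoxifen, injected on 5 days at 75 mg/kg. The study's mice were 6 to 12 weeks old and of both sexes. CD4+ T cells were isolated from spleen with a kit that leaves them unlabelled (Dynabeads Untouched), then sorted by flow cytometry, and kept for 12 h on antibodies to CD3 (5 µg/mL) and CD28 (1 µg/mL), so each library comes from stimulated cells, and unstimulated cells were not analysed here. The study's sorting protocol gates cells of GFP reporter mice on GFP and then parts CD25+ Tregs from CD25- conventional T cells, while the labels of these libraries name CD4+ T cells without a CD25 gate. WT cells carry neither the Cre transgene nor EGFP, so their effects and those of R111A cannot be told apart in this comparison. The labels do not say whether the 2 libraries of a group came from separate animals, so the spread behind the p-values may be technical. The p-values and standard errors (SE) of the fit are moderated by eBayes. They rest on a variance drawn toward that of genes of like level, not on a gene's own libraries alone. Values are FPKM, which scale the fragments of a gene to its transcript length and to the size of the library, and how many reads each value rests on is not known. Zc3h12a, which checks the labels, was at 16.97 and 15.72 FPKM in the WT libraries and at 196.30 and 130.87 FPKM in the R111A libraries.

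When the TCR is engaged, the kinases Lck and Fyn phosphorylate the CD3 and zeta chains, Zap70 docks there and phosphorylates the adaptors Lat and SLP-76, and the complex they build recruits phospholipase C gamma, whose products open the calcium and NFAT branch and the diacylglycerol and Ras branch. Csk, the phosphatases SHP-1 and PTPN22, the Cbl ligases, the Sts proteins and the diacylglycerol kinases act at successive steps to limit the signal. In CD4+ T cells the coreceptor CD4 brings Lck to the receptor when it binds MHC class II.

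At a Benjamini-Hochberg adjusted p below 0.05 in limma, 12 of the 45 members were higher in R111A cells and 12 were lower. With a change of at least 2-fold as well, 3 were higher (Tec, Grap2 and Ptpn22) and 4 were lower (Cd4, Csk, Ptpn6 and Ubash3a). The activators moved in both directions, with 8 of 26 higher and 5 lower, and so did the negative regulators, with 3 of 15 higher and 6 lower. After rescaling each library to the same total (TPM), 4 activators were higher and 11 lower, and 1 negative regulator was higher and 9 lower, with 13.5% of all genes higher and 51.8% lower. After quantile normalization, 12 activators were higher and 3 lower, and 4 negative regulators were higher and 6 lower, with 23.6% and 26.8% of all genes. All 45 members passed the filter of a mean of at least 1 FPKM, as did 9831 genes in all. Of those 9831 genes 53.3% passed adjusted p 0.05, 21.2% higher and 32.1% lower, while the 24 members called are also 53.3% of the list. With the 2-fold change 16.9% of all genes were called, 8.52% higher and 8.34% lower, against 15.6% of the members. The share of members called is thus close to that of all genes tested. The number of calls also depends on single libraries, with 6 members higher and 6 lower without WT replicate 1, and 5 higher and 8 lower without WT replicate 2. The share of all genes called fell in the same fits, to 34.2% and 34.4%. Without R111A replicate 1 there were 12 higher and 17 lower, and without R111A replicate 2 there were 16 higher and 14 lower, with 64.0% and 65.2% of all genes called.

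**Figure D1:**
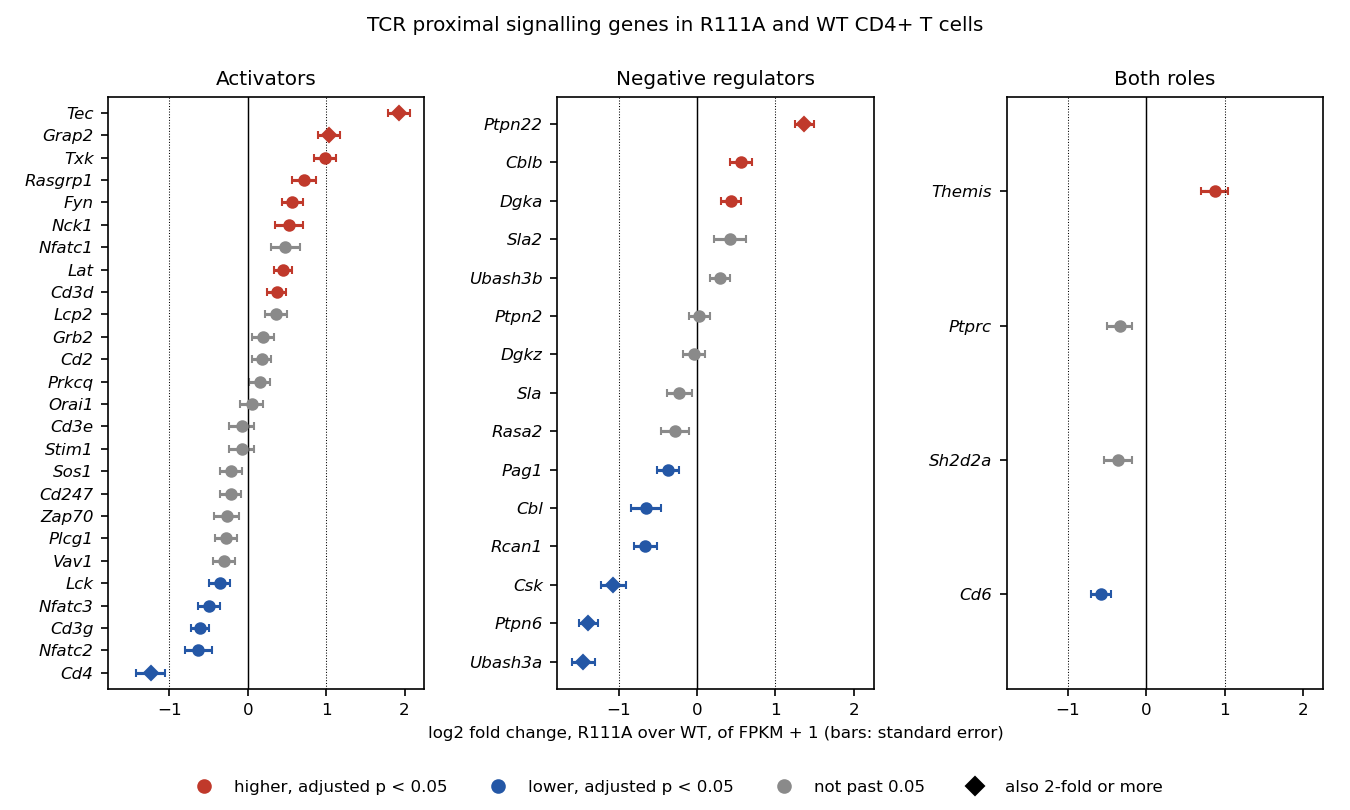
Log2 fold change of FPKM + 1 (horizontal axis) of each of the 45 members, R111A over WT, with 2 libraries per group. Bars show the moderated standard error, which draws on other genes and is not the replicate spread of the gene alone. Red and blue mark members higher and lower at adjusted p below 0.05, diamonds a change of at least 2-fold, and dotted lines the 2-fold limits. Tec at 1.93 and Ubash3a at -1.45 stand at the ends, and activators and negative regulators are found on both sides of 0.

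Promoter sequences are shown for members with the 2-fold change whose window holds the letters of the NFAT core, GGAAA, since NFAT factors are members themselves. The promoter table, from RefSeq (GRCm38.p6), holds 37 of the 45 members, 15 of them with more than 1 start. The 250 bases before each start were searched on both strands for the NFAT core, for AP-1 (TGANTCA), for an extended ETS motif (CCGGAAG) and for RUNX (TGTGGT). Sequences are given 5′ to 3′ on the strand of the gene, and capitals mark a match on either strand (TTTCC and ACCACA are the NFAT and RUNX letters read from the other strand). Csk and Ptpn22 have 2 listed starts each, and the window with more matches is shown. The other window of Csk holds 1 NFAT core, and that of Ptpn22 holds none of the searched letters.
Csk, lower in R111A, chr9:57653632-57653881, minus strand: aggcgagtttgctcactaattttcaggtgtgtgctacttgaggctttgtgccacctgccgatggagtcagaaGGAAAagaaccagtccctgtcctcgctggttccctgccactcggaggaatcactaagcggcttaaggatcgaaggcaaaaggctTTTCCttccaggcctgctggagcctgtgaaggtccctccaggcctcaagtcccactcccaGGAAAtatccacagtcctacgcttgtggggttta
Ptpn6, lower in R111A, chr6:124738710-124738959, minus strand: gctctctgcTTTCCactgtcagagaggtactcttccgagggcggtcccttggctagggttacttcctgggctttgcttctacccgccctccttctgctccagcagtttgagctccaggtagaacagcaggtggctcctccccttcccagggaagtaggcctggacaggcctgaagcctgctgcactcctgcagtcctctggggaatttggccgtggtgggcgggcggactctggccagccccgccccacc
Grap2, higher in R111A, chr15:80623233-80623482, plus strand: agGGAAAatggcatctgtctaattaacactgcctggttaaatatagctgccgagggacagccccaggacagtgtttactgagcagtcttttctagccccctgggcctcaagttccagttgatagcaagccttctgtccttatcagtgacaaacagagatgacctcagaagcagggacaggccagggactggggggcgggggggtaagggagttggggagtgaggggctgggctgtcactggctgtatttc
Ptpn22, higher in R111A, chr3:103860027-103860276, plus strand: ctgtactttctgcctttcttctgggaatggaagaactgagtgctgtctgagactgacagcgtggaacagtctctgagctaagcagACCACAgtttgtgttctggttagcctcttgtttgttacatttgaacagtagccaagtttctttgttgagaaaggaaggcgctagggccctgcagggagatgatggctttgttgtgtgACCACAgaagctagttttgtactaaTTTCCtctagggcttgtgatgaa
The Csk window holds 3 NFAT cores, those of Ptpn6 and Grap2 hold 1 each, and that of Ptpn22 holds 1 NFAT core and 2 RUNX matches. The windows of Tec and Ubash3a hold none of the searched letters, and Cd4 has no entry in the promoter table. The NFAT core was found in 67.3% of the members' 55 promoters and in 55.6% of all 32851 promoters, AP-1 in 1.82% against 6.75%, and RUNX in 10.9% against 14.0%. The ETS letters were found in 0 of the members' promoters and in 6.91% of all. The sequences shown were chosen for holding the NFAT core, so its presence in members that rose and in members that fell is not a result. A match is a description of letters only.

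The group of 6 receptor members holds Cd4, the CD3 and zeta chains and the adhesion receptor Cd2. Among them 1 was higher in R111A cells and 2 were lower (21.2% and 32.1% of all genes). After rescaling to TPM 0 were higher and 4 lower (13.5% and 51.8% of all genes). Cd4 (chr6:124864693-124888247) encodes the coreceptor that defines these cells. It measured 157.54 and 131.28 FPKM in WT cells against 70.69 and 51.35 FPKM in R111A cells. Both R111A libraries lie below both WT libraries, with a log2 fold change of -1.24 (SE 0.18, adjusted p = 0.00057). In bulk RNA, fewer cells that express a gene and less RNA per cell cannot be told apart. The CD3 chains, which carry the signalling motifs of the receptor, did not move together. Cd3g fell from 453.99 and 465.39 FPKM to 288.70 and 312.87 FPKM (log2 fold change -0.61, SE 0.12, adjusted p = 0.0032). Cd3d, its neighbour in the same cluster on chromosome 9, rose from 205.01 and 213.72 FPKM to 275.23 and 266.87 FPKM (log2 fold change 0.37, SE 0.12, adjusted p = 0.029). The call for Cd3d was lost after rescaling each library to TPM, with a log2 fold change of 0.04 and an adjusted p of 0.81, and when either WT library was left out.

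Cd3e, the third gene of the cluster, had 171.94 and 157.47 FPKM in WT libraries compared with 179.52 and 134.57 FPKM with R111A, so its groups overlap. After rescaling to TPM it was lower, at a log2 fold change of -0.41 (adjusted p = 0.030). Cd247, which encodes the zeta chain, stood at 274.78 and 279.51 FPKM in the WT libraries, against 252.34 and 223.64 FPKM in the R111A libraries, and its adjusted p was 0.17, against 0.0023 and a log2 fold change of -0.56 after rescaling to TPM. Cd2, a costimulatory adhesion receptor, had a log2 fold change of 0.18 with an adjusted p of 0.26, and of -0.16 after rescaling to TPM. Exons of Cd247 overlap those of Pou2f1 and exons of Cd3e those of Gm48719 on the opposite strand, and since the strandedness of the libraries is not stated, reads of such partners cannot be told apart. The same holds for Lcp2, Plcg1, Orai1, Nfatc3, Ptpn6, Dgka, Dgkz, Sla2 and Themis.

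Of the 5 kinases that act on the receptor and its adaptors, 3 were higher in R111A and 1 was lower, where 21.2% and 32.1% of all genes were, and on the TPM scale 2 were higher and 2 lower, where 13.5% and 51.8% were. The Src family members went in opposite directions. Lck, which rides on the CD4 and CD8 tails, measured 341.37 and 370.22 FPKM in WT cells against 295.35 and 260.58 FPKM in R111A cells (log2 fold change -0.36, SE 0.13, adjusted p = 0.045). Fyn, the other Src kinase of T cells, had 109.78 and 118.42 FPKM in WT libraries compared with 177.21 and 162.14 FPKM with R111A (log2 fold change 0.57, SE 0.13, adjusted p = 0.0056). For both the groups are apart, yet Lck lay close to the threshold. Its adjusted p reached 0.40 after quantile normalization, and it lost the call when either WT library or R111A replicate 2 was left out, with no filter on low values, with median-of-ratios factors, and with eBayes run robustly or without a trend. Fyn lost its call after rescaling to TPM, at 0.24 and an adjusted p of 0.13, and without WT replicate 1. Zap70, the Syk family kinase that binds the phosphorylated chains, stood at 271.51 and 291.89 FPKM in the WT libraries, against 267.54 and 202.15 FPKM in the R111A libraries, with an adjusted p of 0.17, and passed the test as lower after rescaling to TPM, at -0.61 (adjusted p = 0.0026).

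The largest rise among the 45 members on the log2(FPKM + 1) scale was that of Tec (chr5:72755718-72868654), the founding kinase of the family that activates phospholipase C gamma in lymphocytes. Tec measured 2.06 and 1.99 FPKM in WT cells against 10.53 and 10.49 FPKM in R111A cells. The libraries of each group lie close together, and the log2 fold change was 1.93 (SE 0.14, adjusted p = 1.8e-05). At these low levels the added 1 FPKM lowers the fold change, which was 2.32 with 0.1 FPKM added and 1.14 with 5 FPKM added, where Ptpn22 lies above it at 1.33. Txk (chr5:72695978-72752992), the T cell kinase of the same family and the neighbour of Tec on chromosome 5, had 8.58 and 8.99 FPKM in WT libraries compared with 17.27 and 19.40 FPKM with R111A. Its log2 fold change of 0.98 (SE 0.14, adjusted p = 0.00057) falls just short of 2-fold, and ranged from 0.68 after rescaling to TPM to 1.07 with median-of-ratios factors.

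Markers of other cell types moved between the groups as well, and Tec is also expressed by some of those cells. Of 7 myeloid markers the summed level was 2.27 and 0.95 FPKM in WT and 14.9 and 11.8 FPKM in R111A, with Cd68 the most abundant. All 7 had a higher mean in R111A, among them Adgre1 at 0.04 and 0.04 FPKM in WT and 0.77 and 1.04 FPKM in R111A and Fcgr3 at 0.05 and 0.05 against 1.44 and 0.76 FPKM, while Csf1r and Cd14 were at 0.39 FPKM or less in each library. Of 8 B cell markers the sum was 3.33 and 1.80 FPKM in WT and 5.77 and 5.17 FPKM in R111A, with 4 of 8 at a higher mean in R111A, Cd79a the most abundant there and Ms4a1 at 0.23 FPKM or less. The 5 NK cell markers, led by Eomes, summed to 0.93 and 0.82 FPKM in WT and 7.65 and 5.31 FPKM in R111A, with all 5 at a higher mean in R111A. Eomes held most of the R111A sums, at 6.68 and 4.32 FPKM. The others, Ncr1 among them, were each at 0.4 FPKM or less, so the rise of the sum is mainly that of 1 gene. The 6 erythroid markers, led by Hba-a1, summed to 0.66 and 0.70 FPKM in WT and 12.9 and 13.0 FPKM in R111A, with 4 of 6 at a higher mean in R111A. Hba-a2, whose reads are hard to tell from those of Hba-a1, and Hbb-bs were listed at 0 in each library. Most genes of these lists lie below the filter, so their calls are not counted. Myeloid, B cell, NK cell and erythroid markers each summed to more in both R111A libraries than in either WT library. The CD8 pair, led by Cd8b1, summed to 7.31 and 6.76 FPKM in WT and 3.88 and 4.46 FPKM in R111A. Both genes had a lower mean in R111A, and Cd8a was at 0.20 FPKM or less. The part of such cells in the members' changes was not tested.

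CD4 T cell and Treg markers bear on the receptor genes. The 9 CD4 T cell markers, 5 of which (Cd4 and the CD3 and zeta chains) are members, summed to 1873 and 1828 FPKM in WT and to 1709 and 1440 FPKM in R111A, with Cd3g the most abundant by the mean over the libraries. Of these 9 genes 2 were higher and 5 lower (21.2% and 32.1% of all genes). On the TPM scale Cd3d lost its call, while Cd3e (-0.41, adjusted p = 0.03) and Cd247 (-0.56, adjusted p = 0.0023) were lower as well. On that scale 13.5% of all genes were higher and 51.8% lower. Thy1, a surface marker of T cells that is not a member, stood at 96.47 and 98.09 FPKM in the WT libraries, against 25.54 and 25.11 FPKM in the R111A libraries. Tcf7, also not a member, was higher, at 139.34 and 128.87 FPKM in WT and 308.77 and 185.29 FPKM in R111A. Its log2 fold change was 0.83 (adjusted p = 0.012). Cd5 and Bcl11b, the remaining markers that are not members, were lower, at -0.40 and -0.84. The 6 Treg markers summed to 389 and 406 FPKM in WT and to 200 and 211 FPKM in R111A. Most of the WT sum was held by Tnfrsf18, Il2ra and Ctla4, with means of 202, 138 and 41.6 FPKM, against 10.0 FPKM for Foxp3. The sum therefore does not give the share of Tregs. Of the 6 Treg markers 3 were lower, against 32.1% of all genes. On the TPM scale, with 51.8% of all genes lower, 3 more passed as lower. These were Ikzf2 (-0.63, adjusted p = 0.021), Il2ra (-0.44, adjusted p = 0.011) and Nrp1 (-0.56, adjusted p = 0.0085). Tnfrsf18, the most abundant Treg marker in WT, was at 192.45 and 210.76 FPKM there and at 57.41 and 62.35 FPKM in R111A. Il2ra, the most abundant in R111A, went from 140.21 and 136.12 FPKM to 127.30 and 128.61 FPKM. Foxp3, the factor that defines Tregs, measured 11.31 and 8.78 FPKM in WT cells against 2.86 and 1.86 FPKM in R111A cells. The part of a changed mix of CD4+ subsets in the members' values was not tested.

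All 5 adaptors had a positive log2 fold change, and 3 of them, Grap2, Lat and Nck1, passed the test, while 4170 of all 9831 genes had a positive sign and 21.2% were called higher. On the TPM scale 1 of these 3 kept its call. After rescaling to TPM Grb2 turned to -0.13. Grap2 (chr15:80572597-80652854) encodes Gads, which links Lat to SLP-76. It had 13.92 and 12.84 FPKM in WT libraries compared with 31.07 and 26.22 FPKM with R111A (log2 fold change 1.04, SE 0.14, adjusted p = 0.00051). After rescaling to TPM its log2 fold change was 0.72. Lat, the membrane scaffold on which the complex assembles, stood at 413.13 and 436.42 FPKM in the WT libraries, against 580.08 and 583.08 FPKM in the R111A libraries. The groups are apart, with a log2 fold change of 0.45 (SE 0.12, adjusted p = 0.012). Lcp2, which encodes SLP-76, measured 99.45 and 86.15 FPKM in WT cells against 130.18 and 108.88 FPKM in R111A cells, with an adjusted p of 0.065. Nck1, which ties SLP-76 to the actin cytoskeleton, had a log2 fold change of 0.53 (adjusted p = 0.039). The calls of Lat and Nck1 were lost after rescaling to TPM, with adjusted p values of 0.42 and 0.35, and when either WT library was left out, and that of Nck1 also without R111A replicate 2 and with no filter on low values.

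Of the 5 signalling enzymes and exchange factors downstream of the adaptors, 1 (Rasgrp1) was higher in the main fit and 0 were lower. Among all genes 21.2% were higher and 32.1% lower. After rescaling to TPM Rasgrp1 was higher (0.40, adjusted p = 0.042) and 3 (Plcg1, Vav1 and Sos1) were lower, against 13.5% and 51.8% of all genes. Rasgrp1, the diacylglycerol-responsive activator of Ras, had a log2 fold change of 0.72 (SE 0.15, adjusted p = 0.0038), from a mean of 22.3 FPKM in WT to 37.4 FPKM in R111A. Its adjusted p was 0.087 without WT replicate 2. Plcg1, the phospholipase C gamma of T cells, had 27.12 and 23.75 FPKM in WT libraries compared with 21.64 and 19.72 FPKM with R111A, with a log2 fold change of -0.28 and an adjusted p of 0.12. Vav1 and Sos1, exchange factors for Rac and for Ras, and Prkcq, which encodes protein kinase C theta, had log2 fold changes of -0.30, -0.22 and 0.15. After rescaling to TPM the log2 fold change was -0.61 for Plcg1 (adjusted p = 0.0041), -0.63 for Vav1 (adjusted p = 0.0026), -0.48 for Sos1 (adjusted p = 0.021) and -0.18 for Prkcq (adjusted p = 0.30). Without R111A replicate 1 Plcg1 and Vav1 were at -0.35 and -0.40 on the FPKM scale, values that rest on 1 R111A library.

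In the calcium and NFAT branch 2 of 5 members were lower and 0 were higher, against 32.1% and 21.2% of all genes, and without WT replicate 1 none passed the test. Nfatc2 stood at 7.57 and 6.45 FPKM in the WT libraries, against 4.90 and 3.52 FPKM in the R111A libraries (log2 fold change -0.63, SE 0.17, adjusted p = 0.015). Nfatc3 measured 28.44 and 23.57 FPKM in WT cells against 18.00 and 18.08 FPKM in R111A cells (log2 fold change -0.50, SE 0.14, adjusted p = 0.019). Both encode NFAT factors present before stimulation. Nfatc1, whose short isoform is induced by TCR signals, had 60.02 and 51.02 FPKM in WT libraries compared with 94.78 and 63.89 FPKM with R111A, with a log2 fold change of 0.48 and an adjusted p of 0.061. Its groups do not overlap, though the R111A libraries differ widely. The adjusted p of Nfatc2 was 0.13 and that of Nfatc3 0.34 without WT replicate 1, and Nfatc3 also lost its call without WT replicate 2 and after quantile normalization, and Nfatc2 with no filter on low values. Stim1, the calcium sensor of the endoplasmic reticulum, and Orai1, the channel it opens, had log2 fold changes of -0.08 and 0.05, whose signs turned under other scalings.

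Of the 15 negative regulators 4 passed the 2-fold limit, or 26.7% against 16.9% of all genes, and 3 did with median-of-ratios factors, after quantile normalization and without R111A replicate 2. Ptpn6 (chr6:124720707-124738709) encodes SHP-1, a phosphatase of Lck and Zap70. It stood at 152.18 and 148.53 FPKM in the WT libraries, against 58.36 and 55.20 FPKM in the R111A libraries. The libraries of each group are close to each other and far from the other group, and the log2 fold change was -1.39 (SE 0.12, adjusted p = 4.9e-05). Exons of Ptpn6 share 195 bases with the antisense gene Gm20531. Csk (chr9:57626646-57653631), the kinase that phosphorylates the inhibitory tail tyrosine of Lck and Fyn, measured 132.82 and 134.81 FPKM in WT cells against 72.72 and 54.68 FPKM in R111A cells. This is a log2 fold change of -1.07 (SE 0.16, adjusted p = 0.00065), and of -0.87 without R111A replicate 2. Pag1, the membrane adaptor that anchors Csk, had a log2 fold change of -0.37 (adjusted p = 0.046), a call lost with 0.1 FPKM added, with no filter on low values, with median-of-ratios factors and when either WT library was left out, with an adjusted p of 0.31 without WT replicate 2. Pag1 also lost the call with the replicate number as a block (adjusted p = 0.058), and with the filter at a mean of 5 FPKM it was not tested.

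Ptpn22 (chr3:103856575-103912252), the phosphatase that binds Csk and dephosphorylates Lck and Zap70, went the opposite way. It had 73.88 and 70.59 FPKM in WT libraries compared with 190.41 and 187.03 FPKM with R111A (log2 fold change 1.37, SE 0.12, adjusted p = 4.9e-05). In both WT libraries it lay below Ptpn6 and Csk, and in both R111A libraries above them. Ptpn2, a phosphatase of Lck, Fyn and the JAK kinases, had a log2 fold change of 0.03 with an adjusted p of 0.85, and of -0.30 after rescaling to TPM.

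Ubash3a (chr17:31207868-31259681) encodes Sts-2, the lymphoid member of the Sts pair, and had the largest fall of the 45 on the log2(FPKM + 1) scale. It stood at 45.34 and 43.86 FPKM in the WT libraries, against 17.45 and 14.16 FPKM in the R111A libraries (log2 fold change -1.45, SE 0.15, adjusted p = 9.3e-05). With 5 FPKM added it was at -1.26 and Ptpn6 at -1.33, and without R111A replicate 2 at -1.31 and Ptpn6 at -1.35. Its partner Ubash3b, which encodes the phosphatase Sts-1, measured 49.89 and 49.38 FPKM in WT cells against 64.13 and 57.81 FPKM in R111A cells, with a log2 fold change of 0.29 and an adjusted p of 0.088. It was at -0.04 after rescaling to TPM, and passed the test as higher with median-of-ratios factors (0.38, adjusted p = 0.040) and after quantile normalization (0.51, adjusted p = 0.012). Without R111A replicate 2 Ubash3b was at 0.36, a value that rests on R111A replicate 1. The ubiquitin ligases also parted. Cbl had 16.17 and 11.95 FPKM in WT libraries compared with 7.27 and 9.85 FPKM with R111A (log2 fold change -0.65, SE 0.19, adjusted p = 0.020), and its adjusted p was 0.23 without WT replicate 1. Cblb, the ligase that sets the need for CD28 costimulation, stood at 41.61 and 36.75 FPKM in the WT libraries, against 62.26 and 54.23 FPKM in the R111A libraries (log2 fold change 0.56, SE 0.14, adjusted p = 0.0096). Cbl also lost its call without R111A replicate 1 and with no filter on low values. Cblb lost its call when either WT library was left out and after rescaling to TPM, where its adjusted p was 0.19.

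The diacylglycerol kinases end the lipid signal that recruits Rasgrp1. Dgka measured 114.54 and 105.43 FPKM in WT cells against 155.44 and 141.47 FPKM in R111A cells (log2 fold change 0.43, SE 0.13, adjusted p = 0.021), a call lost after rescaling to TPM, with an adjusted p of 0.55, and when either WT library was left out. Dgkz had 102.65 and 102.78 FPKM in WT libraries compared with 109.76 and 90.97 FPKM with R111A, so its groups overlap. Rcan1, an inhibitor of calcineurin and itself a target of NFAT, was lower, with a log2 fold change of -0.66 (SE 0.15, adjusted p = 0.0069), and its adjusted p was 0.079 without WT replicate 2. The Src-like adaptors, which lead the TCR to degradation, did not pass the test in the main fit. Sla stood at 156.86 and 145.41 FPKM in the WT libraries, against 110.27 and 150.77 FPKM in the R111A libraries, and Sla2 measured 5.15 and 5.20 FPKM in WT cells against 9.41 and 5.58 FPKM in R111A cells. For both, R111A replicate 1 is the library that stands away from the rest. Without R111A replicate 2 the log2 fold change was -0.45 for Sla and 0.75 for Sla2, values that rest on that 1 R111A library. Rasa2, a GTPase activator that switches off Ras, had a log2 fold change of -0.28 with an adjusted p of 0.22.

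Among the 4 members given both roles, 1 was higher (Themis) and 1 lower (Cd6), against 21.2% and 32.1% of all genes. On the TPM scale 1 was higher and 3 lower, against 13.5% and 51.8% of all genes. Themis, an adaptor that binds SHP-1 and Grb2, had a log2 fold change of 0.87 (SE 0.17, adjusted p = 0.0032), from a mean of 4.79 FPKM in WT to 9.48 FPKM in R111A, and an adjusted p of 0.054 without WT replicate 2. Cd6, a surface scaffold for SLP-76, had a log2 fold change of -0.58 (SE 0.13, adjusted p = 0.0056), from a mean of 302 FPKM to 202 FPKM, and an adjusted p of 0.072 without WT replicate 1. Ptprc, which encodes CD45, and Sh2d2a, which encodes the Lck-binding adaptor TSAd, had log2 fold changes of -0.34 and -0.36 with adjusted p values of 0.099 and 0.13. After rescaling to TPM both passed as lower, at -0.67 (adjusted p = 0.0024) and -0.69 (adjusted p = 0.0037).

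**Figure D2:**
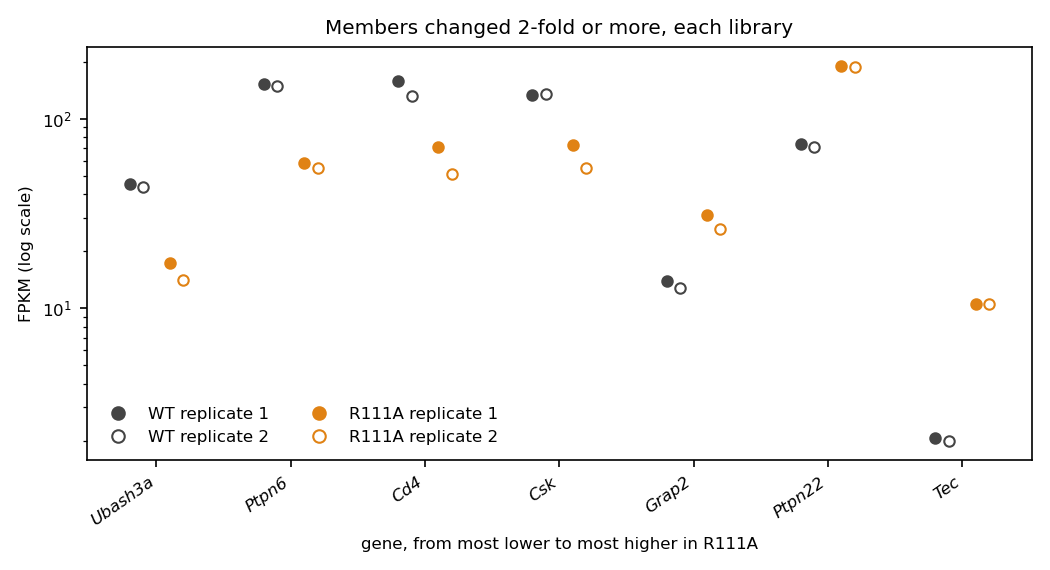
FPKM (vertical axis, log scale) of the 7 members changed at least 2-fold at adjusted p below 0.05, in each of the 2 WT and 2 R111A libraries, ordered by fold change. For each gene the R111A libraries lie apart from the WT libraries, as for Ptpn22 at 190.41 and 187.03 against 73.88 and 70.59.

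Set side by side, activators had a median log2 fold change of 0.10 and negative regulators one of -0.23, while the median of all 9831 genes was -0.12. The activators lie 0.22 above the median of all genes and the negative regulators 0.11 below it, a difference of 0.33 between the roles. Rescaling to TPM and median-of-ratios factors scale all genes of a library alike, so they can hardly move this difference. It was 0.33 under each of them, and 0.32 after quantile normalization. The place of the negative regulators against all genes turned in some settings, to 0.06 above the all-gene median of -0.04 after quantile normalization and 0.08 above that of -0.11 without R111A replicate 1. With the 4 members of both roles counted as activators, the activator median was -0.02 and the difference 0.21. The difference also depends on which R111A library is used. Without R111A replicate 1 the medians were -0.02 and -0.03, a difference of 0.01, and without R111A replicate 2 they were 0.22 and -0.41, a difference of 0.62. The summed FPKM of the activators was 3138 and 3165 in WT and 3292 and 2990 in R111A, and that of the negative regulators 993 and 964 in WT and 950 and 930 in R111A. The ratio of these sums was 3.16 and 3.28 in WT and 3.46 and 3.22 in R111A, so by summed RNA the groups overlap. The members held 0.625% and 0.594% of the summed FPKM of the WT libraries and 0.462% and 0.454% of that of the R111A libraries.

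The libraries differ in their total FPKM, which was 801475 and 836143 in WT and 1053551 and 1012215 in R111A. Rescaling each to TPM, in which each library has the same total, moves the median of all genes from -0.12 to -0.42 and that of the members from -0.08 to -0.40, which leaves the members 0.03 and 0.02 above all genes. On that scale 6 members were higher and 23 lower, with 13.5% and 51.8% of all genes tested. The 12 members lower on the FPKM scale kept their call, and of the 12 higher 6 did. The 11 members lower on the TPM scale and not called in the main fit were Cd3e, Cd247, Zap70, Plcg1, Vav1, Sos1, Ptprc, Sh2d2a, Dgkz, Sla and Rasa2. Other scalings moved the counts the other way, to 15 members higher and 10 lower with median-of-ratios factors (24.4% and 26.9% of all genes) and 17 higher and 10 lower after quantile normalization (23.6% and 26.8%). Lcp2, Nfatc1 and Ubash3b were higher under both of these, and Cd2 and Prkcq after quantile normalization. On the FPKM scale calls were gained too when an R111A library was left out, each resting on the single R111A library that remained. Without R111A replicate 1 Cd3e, Cd247, Zap70, Plcg1, Vav1 and Sh2d2a were lower, and without R111A replicate 2 Ptprc, Sla and Rasa2 were lower and Lcp2, Grb2, Ubash3b, Sla2 and Nfatc1 higher. The 7 members with the 2-fold change passed adjusted p 0.05 under all 14 alternatives to the fit, yet 2 of them fell short of 2-fold in some. Grap2 was at 0.72 on the TPM scale, 0.87 with 5 FPKM added, 0.99 without WT replicate 2 and 0.92 without R111A replicate 1, and Csk at -0.98 with median-of-ratios factors, -0.83 after quantile normalization and -0.87 without R111A replicate 2.

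**Figure D3:**
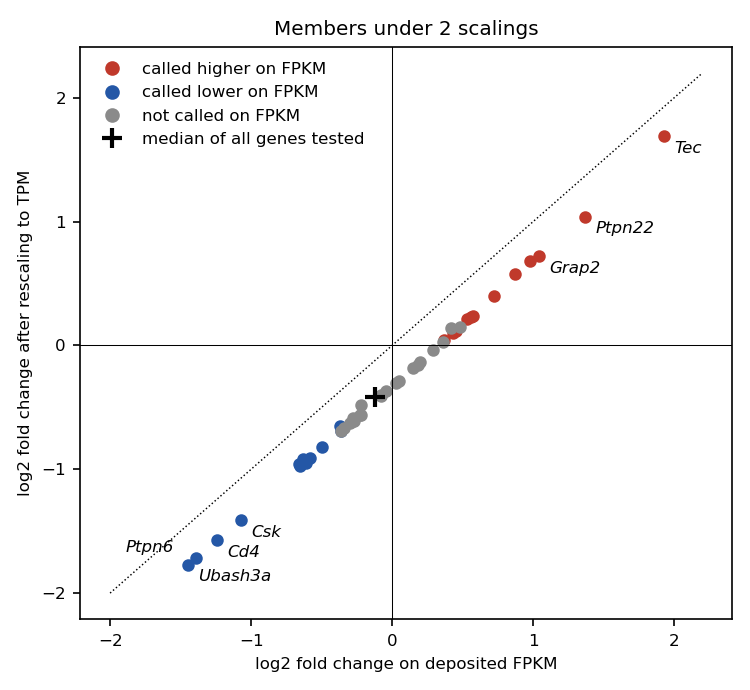
Log2 fold change of the 45 members, R111A over WT, on the deposited FPKM (horizontal axis) and after rescaling each library to TPM (vertical axis), with the median of all genes tested as a cross at -0.12 and -0.42. Points lie below the dotted line of equal values by a nearly constant amount, and the 7 named members keep their side of 0.

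A ratio of 2 genes within a library does not change with the library's scale, so pairs of related members were set against each other. Of 11 such pairs 8 had members with opposite signs, as do 48.9% of all pairs of tested genes. For 10 of them the ratios of the groups do not overlap, as in 79.3% of all pairs of tested genes with no value at 0. Signs of members that did not pass the test are included, and some of them turn with scaling, while the ratios do not. Cd3d to Cd3g went from 0.452 and 0.459 in WT to 0.953 and 0.853 in R111A, so the delta chain nearly reached the level of gamma. Lck to Fyn went from 3.11 and 3.13 to 1.67 and 1.61. Txk to Tec went from 4.17 and 4.52 to 1.64 and 1.85, as Tec rose more than Txk. In each of these pairs the less abundant member gained on the other in both R111A libraries.

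Grap2 to Grb2 went from 0.342 and 0.278 to 0.572 and 0.570. Nfatc1 to Nfatc2 went from 7.93 and 7.91 to 19.3 and 18.2, and Nfatc1 to Nfatc3 from 2.11 and 2.16 to 5.27 and 3.53. The NFAT messages thus shifted toward Nfatc1 in both R111A libraries, while the ratio of Nfatc2 to Nfatc3 overlaps between the groups. Among negative regulators, Ubash3a to Ubash3b went from 0.909 and 0.888 to 0.272 and 0.245, and Cbl to Cblb from 0.389 and 0.325 to 0.117 and 0.182. Dgka to Dgkz went from 1.12 and 1.03 to 1.42 and 1.56. Sla to Sla2 was at 30.5 and 28 in WT and at 11.7 and 27.0 in R111A, a shift that is found in R111A replicate 1 and hardly in R111A replicate 2.

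Further ratios were formed after the values had been seen. Ptpn22 to Ptpn6 went from 0.485 and 0.475 in WT to 3.26 and 3.39 in R111A, and Ptpn22 to its binding partner Csk from 0.556 and 0.524 to 2.62 and 3.42. Cd4 to Cd3e went from 0.916 and 0.834 to 0.394 and 0.382, whereas Cd247 to Cd3e overlaps between the groups, at 1.60 and 1.78 against 1.41 and 1.66.

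**Figure D4:**
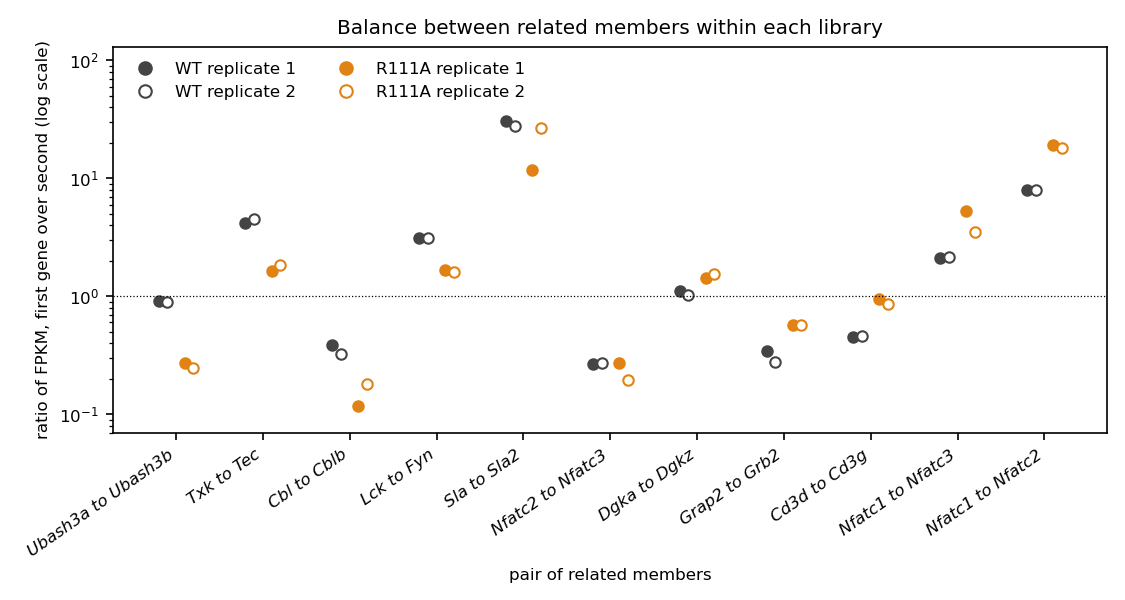
Ratio of the FPKM of related members within each library (vertical axis, log scale, with the dotted line at 1) for 11 pairs, in 2 WT and 2 R111A libraries. The ratios of the groups are apart for all pairs except Nfatc2 to Nfatc3, as for Ubash3a to Ubash3b at 0.909 and 0.888 against 0.272 and 0.245.

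The libraries of the 2 groups do not overlap for 36 of the 45 members, 18 higher and 18 lower in R111A, and overlap for 9. Among all genes tested 78.3% do not overlap. Between replicates the members differed by a median of 0.10 on the log2 scale in WT, at most by 0.41 for Cbl, and by a median of 0.20 in R111A, at most by 0.66 for Sla2. An exact permutation test of 2 libraries against 2 has 0.333 as its lowest two-sided p, so single values were not tested in that way.

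Other genes of the pathway, not among the 45, were counted the same way. Each was given 1 role, which may not be its only one, and Ptpn11 and Traf3ip3 were counted as negative regulators. Of 47 other activators 10 were higher and 13 lower, and with the 2-fold change 6 were higher and 3 lower. Of 35 other negative regulators, 32 of which passed the filter, 8 were higher and 9 lower, and with the 2-fold change 4 were higher and 6 lower. Those higher include Spry2, which passed the filter only through the R111A libraries. On the TPM scale the other activators had 9 higher and 22 lower, and the other negative regulators 5 higher and 19 lower. The shares called higher and lower were 21.3% and 27.7% of the tested other activators and 25.0% and 28.1% of the tested other negative regulators, against 21.2% and 32.1% of all genes, and on the TPM scale 19.1% and 46.8%, and 15.2% and 57.6%, against 13.5% and 51.8%. With the 2-fold change they were 12.8% and 6.38%, and 12.5% and 18.8%, against 8.52% and 8.34%. On the TPM scale these 2-fold shares were 8.51% and 21.3%, and 12.1% and 21.2%, against 5.86% and 17.8%. Both directions are found in each list, as among the members. The median log2 fold change of the other activators lay 0.04 above that of all genes, and that of the other negative regulators 0.03 below it. Without R111A replicate 2 these medians lay 0.05 and 0.12 above it.

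On the log2(FPKM + 1) scale the rises were led by Orai2, a calcium channel subunit related to Orai1, which had 6.42 and 7.18 FPKM in WT libraries compared with 40.45 and 36.82 FPKM with R111A (log2 fold change 2.35, adjusted p = 9.4e-06). Spry2, an inhibitor of Ras and MAPK signalling, stood at 0.16 and 0.22 FPKM in the WT libraries, against 4.23 and 4.24 FPKM in the R111A libraries. Its mean over all libraries was 2.21 FPKM, so it passed the filter only through the R111A libraries. Trat1, the TCR-interacting adaptor TRIM, measured 5.11 and 4.70 FPKM in WT cells against 20.47 and 28.43 FPKM in R111A cells. With 0.1 FPKM added Spry2 comes first, at 3.91, and Orai2 is at 2.49. Each of these is low in both WT libraries and several times higher in both R111A libraries. Traf3ip3 and the Src kinase-associated adaptor Skap1 had log2 fold changes of 1.68 and 1.52. Rasa3, a GTPase activator that acts on Ras, had 16.45 and 15.12 FPKM in WT and 54.16 and 40.04 FPKM in R111A (adjusted p = 0.00015).

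Lag3, an inhibitory receptor for MHC class II, had 72.68 and 64.55 FPKM in WT libraries compared with 7.12 and 5.97 FPKM with R111A (log2 fold change -3.21, adjusted p = 3.4e-06). Cish, a SOCS family protein that targets phospholipase C gamma, stood at 75.54 and 70.15 FPKM in the WT libraries, against 9.10 and 8.07 FPKM in the R111A libraries (log2 fold change -2.95, adjusted p = 3.6e-06). Ctla4, which competes with CD28 for its ligands, measured 38.94 and 44.32 FPKM in WT cells against 8.94 and 12.03 FPKM in R111A cells. It is also one of the Treg markers counted here. Ptpn11, which encodes SHP-2, the relative of SHP-1, had 43.95 and 44.02 FPKM in WT libraries compared with 13.18 and 14.26 FPKM with R111A. As with Ptpn6, the R111A libraries lie far below the WT libraries. Vav3, an exchange factor related to Vav1, and Map4k1, the kinase HPK1 that marks SLP-76 for degradation, had log2 fold changes of -1.37 and -1.28.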

How the data were processed

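The authors sequenced polyA RNA and, per the submitters' processing notes, used Bowtie2 2.4.4 and RSEM 1.2.28 with mm10, and deposited 1 table of FPKM per gene and library. Annotation and strandedness are not given in the sources used here. From these values log2(FPKM + 1) was fitted with limma 3.58.1 in R 4.3.3 (lmFit, eBayes with trend), R111A minus WT, 2 libraries against 2, keeping the 9831 genes whose mean over the libraries reached 1 FPKM. P-values were adjusted over all of these by Benjamini-Hochberg. Fold changes are on this scale, which understates changes of low genes. The code was checked on simulated data. Values in each library are given for members past both thresholds, for core receptor and scaffold genes and for related members that moved in opposite directions, and of the other pathway genes up to 6 in each direction are named by size. Thy1, Foxp3 and other markers, and members near a threshold, were named after their values were seen. Members and lists were chosen with earlier results of these data known. Low FPKM values showed no clear steps from which relative depth could be read. Positions are from RefSeq GRCm38.p6, matched by NCBI gene ID, and exon overlaps from GENCODE. The alternatives were other pseudocounts and filters, rescaling to TPM, median-of-ratios and quantile scaling, other eBayes settings, a replicate block, and leaving out each library. Some genes of the marker and pathway lists enter the counts and sums but are not reported here by name.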

Additional observations from a re-analysis of the deposited data

How the results depend on the processing

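The cause of the changes below was not tested. After rescaling to TPM 6 members were higher and 23 lower, the median log2 fold change of the activators was -0.23 and that of the negative regulators -0.56. After quantile normalization 17 members were higher and 10 lower, and these medians were 0.33 and 0.01. With median-of-ratios factors 15 were higher and 10 lower. Of all genes 13.5% were higher and 51.8% lower after rescaling to TPM, 23.6% and 26.8% after quantile normalization, and 24.4% and 26.9% with median-of-ratios factors. Without each library in turn, 5 to 16 members were higher and 6 to 17 lower, with 14.9% to 25.6% and 19.3% to 39.8% of all genes, and the median of the activators minus that of the negative regulators ranged from 0.01 to 0.62. In those fits a lone library is assumed to vary like the other group.

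Members not called on the FPKM scale changed sign in some settings. After rescaling to TPM the log2 fold change was -0.13 for Grb2, -0.18 for Prkcq, -0.16 for Cd2, -0.30 for Ptpn2, -0.04 for Ubash3b and -0.29 for Orai1. With median-of-ratios factors it was 0.01 for Cd3e, 0.05 for Dgkz and 0.00 for Stim1, and after quantile normalization 0.14 for Cd3e, 0.19 for Dgkz, 0.01 for Sla and 0.01 for Stim1. Without each library in turn it ranged from -0.07 to 0.14 for Ptpn2, -0.13 to 0.22 for Orai1, -0.29 to 0.12 for Cd3e, -0.17 to 0.09 for Dgkz and -0.27 to 0.11 for Stim1.

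None of the 24 called members changed sign under the 14 alternatives, of which the filter at a mean of 5 FPKM leaves Pag1 untested. The replicate numbers are not known to pair the libraries, and the correlation of deviations from the group means was 0.111. This is a single value, since with 2 libraries per group both replicate numbers must give the same one. With the replicate block 15 members were higher and 12 lower, the 12 higher and 11 of the 12 lower among them as before, while Pag1 lost its call (adjusted p = 0.058) and Lcp2, Nfatc1, Sla2 (higher) and Sh2d2a (lower) gained one. In that fit 22.7% of all genes were higher and 34.2% lower, against 21.2% and 32.1% without the block. The number of reads behind each FPKM is not known, so counting error could not be separated from other spread.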
